A study of Mus musculus with 6 samples.

Results

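The complement system of mouse bone-marrow macrophages was followed through 9 genes: C1qa, C1qb and C1qc, which encode the A, B and C chains of the recognition protein C1q, C3 and C4b, which encode proteins that are cleaved and deposited on targets, Cfb and Cfp, which encode factor B and properdin of the alternative pathway, and C3ar1 and C5ar1, which encode the receptors of the released anaphylatoxins. They were taken by symbol and read on 10 probes, out of 20018 named genes on 26413 of the 55681 probes of the array. All 9 were well above background on all 6 arrays and were among the 15736 genes tested. The 9 genes were chosen by name with their measured KO minus WT differences on these same arrays already known. Their differences between genotypes and the p-values attached to them are therefore given as a description and support nothing by themselves.

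The cells were differentiated from the bone marrow of C57BL/6 mice of 11 weeks over 5 days in RPMI, 10% of it fetal bovine serum, with GM-CSF (10 ng/mL), a growth factor of myeloid cells. The WT group held 3 wild-type mice (WT 1, 2 and 3) and the KO group 3 mice lacking Bach1 (KO 947, 948 and 949), a repressor of transcription that heme releases from DNA. Each mouse gave 1 one-colour Agilent array, and WT 3 and KO 949 were labelled female. The sources used here do not give how the Bach1 allele was made.

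WT 1, 2 and 3 and KO 947 shared 1 slide, and KO 948 and 949 lay on the other. Spots well above background made up 70.3% to 73.2% of each WT array and 62.5% to 65.1% of each KO array. The Bach1 probe gave 2.21, 2.48 and 2.59 on WT 1, 2 and 3, against 1.45, 2.00 and 2.23 on KO 947, 948 and 949. Where it lies relative to the deletion was not stated, and it therefore checks no label. Macrophage markers were present: of 10 listed, 1 (Cd68) had no named probe and the other 9 were well above background on all 6 arrays. The same held for all 11 dendritic cell markers tested and for 8 of 9 granulocyte markers, and detection alone names no cell type. Among all genes tested, 180 were higher and 357 lower in KO at an adjusted p under 0.05. When arrays were scaled to their median instead of their 75th percentile, the median difference of all genes moved to 0.21 from -0.01 and the split became 384 higher and 230 lower. All levels below are log2 processed signals minus the log2 75th percentile of their array, and all differences are KO minus WT on that log2 scale.

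Complement is a set of proteins that tag microbes and dying cells for uptake. C1q starts the classical pathway by binding antibody or exposed ligands on cells, C4 and C3 are cleaved in turn, factor B joins with C3 fragments to form the amplifying enzyme of the alternative pathway, and properdin holds that enzyme together. The small fragments set free act on C3AR1 and C5AR1, receptors of myeloid cells that guide movement and activation. Most plasma complement comes from liver, whereas macrophages make C1q themselves and take part in local supply of C3, factor B and properdin. C1qb, C1qc and C1qa follow each other directly on chromosome 4 with 0 other protein-coding genes between neighbours, and Cfb stands beside C2 on chromosome 17, with 5 protein-coding genes between C4b and Cfb, in the RefSeq gene table (GRCm38.p6).

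No promoter sequence was available for C1qa, the C1q chain with the largest difference. The promoter sequences of C1qb and C1qc are shown because the chains belong to 1 protein yet had differences of unequal size, and those of C3ar1 and C5ar1 because both receptors were higher in KO. They run from 250 bases before to 50 after the start listed by RefSeq (GRCm38.p6), 5′ to 3′ on the minus strand, at chr4:136886151-136886450, chr4:136892865-136893164, chr6:122856108-122856407 and chr7:16259289-16259588. Capitals mark matches, on both strands, to any of 5 short motifs.

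C1qb: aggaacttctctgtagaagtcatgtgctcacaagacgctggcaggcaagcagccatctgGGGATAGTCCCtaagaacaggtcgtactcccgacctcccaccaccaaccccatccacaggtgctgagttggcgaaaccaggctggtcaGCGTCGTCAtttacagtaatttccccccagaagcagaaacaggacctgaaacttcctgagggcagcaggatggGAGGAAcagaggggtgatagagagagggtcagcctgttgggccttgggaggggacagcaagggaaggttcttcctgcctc

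C1qc: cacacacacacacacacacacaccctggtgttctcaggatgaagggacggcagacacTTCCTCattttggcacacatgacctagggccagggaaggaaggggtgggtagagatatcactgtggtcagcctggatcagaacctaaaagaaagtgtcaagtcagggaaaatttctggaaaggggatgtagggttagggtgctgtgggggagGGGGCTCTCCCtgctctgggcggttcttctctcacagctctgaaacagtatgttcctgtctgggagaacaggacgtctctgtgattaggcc

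C3ar1: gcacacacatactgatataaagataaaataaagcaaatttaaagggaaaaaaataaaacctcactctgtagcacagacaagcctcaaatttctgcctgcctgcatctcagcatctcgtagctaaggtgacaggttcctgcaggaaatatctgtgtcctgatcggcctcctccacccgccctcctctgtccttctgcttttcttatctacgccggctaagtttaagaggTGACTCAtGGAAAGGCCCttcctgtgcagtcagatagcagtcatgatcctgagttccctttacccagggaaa

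C5ar1: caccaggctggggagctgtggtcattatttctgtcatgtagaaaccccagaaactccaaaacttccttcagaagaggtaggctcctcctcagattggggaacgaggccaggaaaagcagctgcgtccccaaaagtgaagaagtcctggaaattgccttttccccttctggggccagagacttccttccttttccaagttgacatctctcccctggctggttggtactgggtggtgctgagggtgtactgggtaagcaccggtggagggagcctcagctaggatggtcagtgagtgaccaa

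The motifs searched were TGACNNNGC, the core of the antioxidant response element that BACH1 and NRF2 bind with small Maf proteins, TGANTCA (AP-1), an NF-kB motif (GGG and CC with any 5 bases between), an interferon-stimulated response element (GAAA repeated after any 2 bases) and GAGGAA (PU.1 core). The first and second can overlap, since a sequence with both in register matches each, and an NF-kB match can overlap another on the opposite strand. The table held promoters for 6 of the 9 genes and none for C1qa, C4b and Cfb. TGACNNNGC was in 2 of these, C1qb (read on the reverse strand, 103 bases before the start) and Cfp (90 bases before), against 12.4% of all 32851 promoters of the same 300 bases. TGANTCA was in 1, C3ar1, as TGACTCA 22 bases before the start, against 7.81% of all. The NF-kB motif was in 5 of 6 (50.8% of all), GAGGAA in 3 (28.3%) and the interferon-stimulated element in 0 (3.44%). The C5ar1 window had 0 matches. These are letter matches in 1 short window and describe no bound site.

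None of the 3 C1q chains passed the test, and their mean KO minus WT differences ran from -1.29 for the A chain to -0.26 for the C chain. C1qa read 6.14, 5.60 and 5.88 on WT 1, 2 and 3, against 5.10, 4.50 and 4.14 on KO 947, 948 and 949. The highest KO value was below the lowest WT value. The difference was -1.29 ± 0.28 (SE, n = 3 mice per genotype; 2.45-fold lower), with an adjusted p of 0.0604 in the limma fit over all genes, which did not pass.

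C1qb, the B chain, read 6.11, 5.68 and 5.99 on WT 1, 2 and 3, against 5.61, 5.20 and 5.11 on KO 947, 948 and 949. The groups did not overlap, although WT 2 and KO 947 lay close to each other. The difference was -0.62 ± 0.20 (limma adjusted p = 0.148). C1qc, the C chain, read 6.48, 6.04 and 6.31 for the WT mice against 5.99, 6.05 and 6.02 for the KO mice, so that WT 2 fell within the KO values and the groups overlapped. Its difference of -0.26 ± 0.16 (95% interval -0.64 to 0.12, limma adjusted p = 0.411) allows anything from a moderate decrease to a slight increase.

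The mean differences of the chains were unequal in size, with no test of the gaps between them. C1qa was lower by 1.03 more than C1qc on the log2 scale, and by 0.67 more than C1qb, and in both of these gaps the KO arrays stood apart from the WT arrays. C1qb was lower by 0.36 more than C1qc, but on KO 947 that gap lay next to the WT values, so that it rests on KO 948 and 949 of the other slide. Within the KO group C1qa spread more (SD 0.49) than C1qc (SD 0.03), and in WT the chains had SDs from 0.22 to 0.27. Within the slide that holds both genotypes, KO 947 is the only KO array and is assumed to vary like the WT arrays. There the difference was -0.77 for C1qa (limma adjusted p = 0.314, the highest of a range from 0.0220 over 18 alternatives), -0.32 for C1qb and -0.29 for C1qc. With scaling to the array median the C1qc difference was -0.04.

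**Figure D1:**
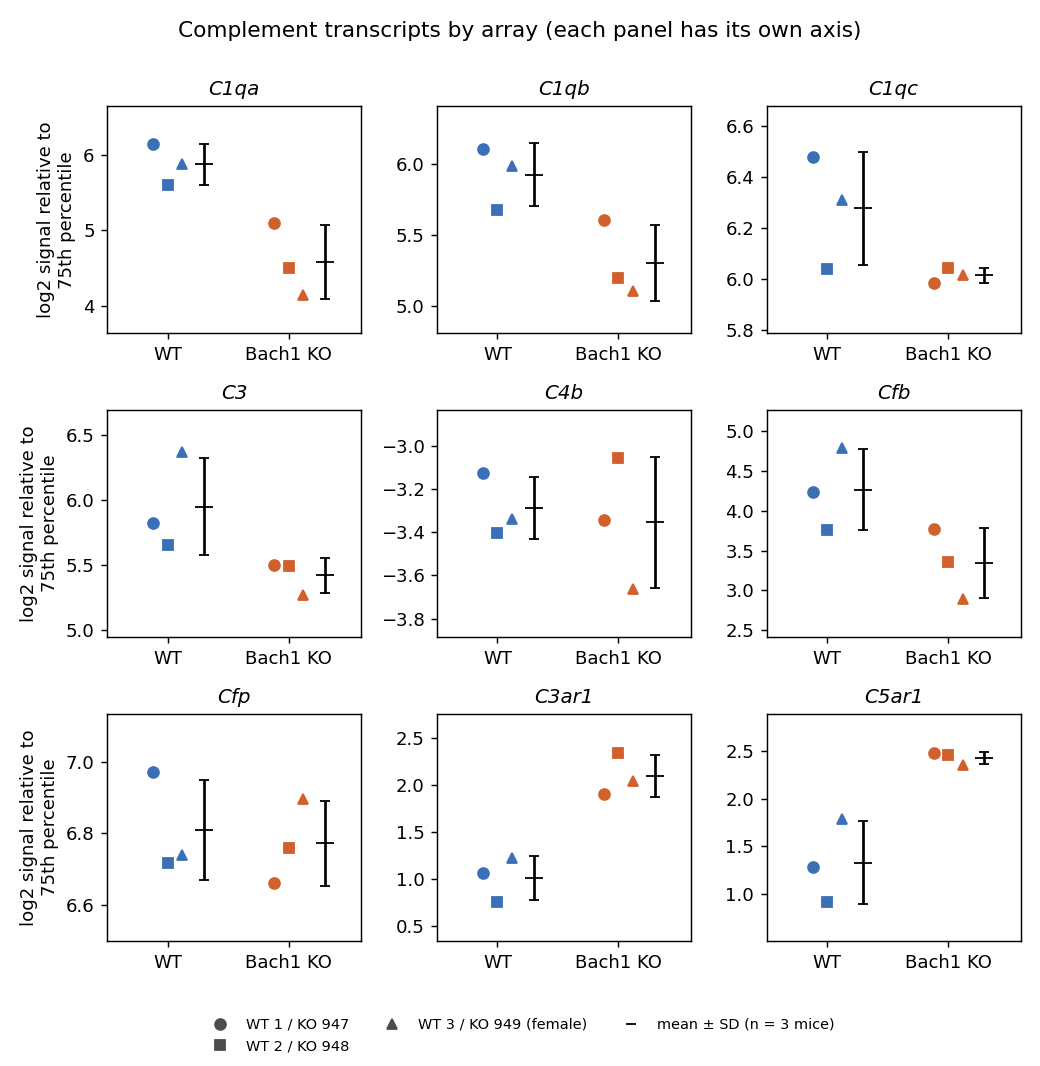
Log2 signal (75th percentile of each array at 0) of the 9 complement genes, with 1 point per mouse (3 WT in blue, 3 Bach1 KO in orange) and the mean ± SD beside each group; each panel has its own axis, and a shared marker shape pairs no mice. C1qa, C1qb and C3 lie lower in all KO arrays than in all WT arrays, C3ar1 and C5ar1 lie higher in all KO arrays, and C1qc, C4b, Cfb and Cfp overlap.

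C3, the protein on which the pathways converge, was read by 2 probes of the same transcript, and both were lower in all KO arrays. The brighter probe read 5.82, 5.65 and 6.37 on WT 1, 2 and 3, against 5.50, 5.49 and 5.27 on KO 947, 948 and 949. WT 3 was the highest array by far, and WT 2 lay only slightly above KO 947. The difference was -0.53 ± 0.22 (limma adjusted p = 0.237), and -0.32 without WT 3. The dimmer probe read 5.39, 5.22 and 5.87 for the WT mice against 5.02, 4.64 and 4.35 for the KO mice, a difference of -0.82 ± 0.25 (limma adjusted p = 0.139 among all probes), so the probes disagree on the size.

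C4b, whose product is cleaved in the classical and lectin pathways, did not separate the genotypes. It read -3.12, -3.40 and -3.34 on WT 1, 2 and 3, against -3.34, -3.05 and -3.66 on KO 947, 948 and 949. The KO arrays lay on both sides of the WT values. The difference was -0.07 ± 0.20 (95% interval -0.53 to 0.40, limma adjusted p = 0.882), and its sign turned with the scaling (0.10 with quantile normalization, 0.15 on the array median scale, 0.05 after normexp followed by quantile normalization). C4a, a near-identical neighbour of C4b, had no probe of its own name here, so signal from it cannot be told apart.

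Of the alternative pathway genes, Cfb was lower in mean and Cfp nearly level, and neither passed the test. Cfb, which encodes factor B, read 4.24, 3.76 and 4.78 on WT 1, 2 and 3, against 3.77, 3.36 and 2.89 on KO 947, 948 and 949. WT 3 was again the highest and KO 949 the lowest, and KO 947 lay just above WT 2, so that the groups overlapped. The difference was -0.92 ± 0.32 (limma adjusted p = 0.176), and -0.49 within the slide with both genotypes.

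Cfp, which encodes properdin, had the smallest difference of the 9 genes. It read 6.97, 6.72 and 6.74 on WT 1, 2 and 3, against 6.66, 6.76 and 6.90 on KO 947, 948 and 949. The ranges of the genotypes lay almost on top of each other. The difference of -0.04 ± 0.15 had a 95% interval of -0.40 to 0.32 (limma adjusted p = 0.913), and its sign also turned with the scaling, to 0.18 with scaling to the array median, 0.04 with quantile normalization and 0.06 with normexp followed by quantile normalization.

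The anaphylatoxin receptors went the other way. C3ar1, the receptor of the fragment released from C3, read 1.06, 0.76 and 1.22 on WT 1, 2 and 3, against 1.90, 2.34 and 2.04 on KO 947, 948 and 949. The lowest KO array stood clear of the highest WT array. C3ar1 rose by 1.08 ± 0.19 on the log2 scale (2.12-fold, limma adjusted p = 0.0397).

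C5ar1, the receptor of the fragment released from C5, read 1.28, 0.92 and 1.79 on WT 1, 2 and 3, against 2.48, 2.45 and 2.35 on KO 947, 948 and 949. The KO arrays lay close together (SD 0.07) above a more spread WT group (SD 0.44). The difference was 1.10 ± 0.23 (2.14-fold, limma adjusted p = 0.0592), nearly the size for C3ar1, but it did not pass. Within the slide with both genotypes the differences were 0.89 for C3ar1 (limma adjusted p = 0.253) and 1.15 for C5ar1 (limma adjusted p = 0.276). The C3ar1 call was kept in 6 of 18 alternatives and lost in the other 12, among them without WT 1, 2 or 3 (adjusted p = 0.126, 0.108 and 0.0663) and without KO 948 or 949 (adjusted p = 0.130 and 0.104), while the direction was kept in all 18 and the adjusted p ran from 0.0148 to 0.253.

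Over the 9 genes, 1 passed the limma test, higher in KO, where 3.41% of all genes passed in either direction and 1.14% as higher. In 5 of 9 the genotypes did not overlap, 2 higher (13.4% of all genes) and 3 lower (13.5% of all genes), against 26.9% of all genes in either direction. The median difference of the 9 was -0.26, beside -0.01 for all genes tested. As the genes were picked with this contrast known, nothing is read from these shares. An unadjusted p under 0.05 was reached by 6 of 9, against 20.4% of all genes, and by 3 of 9 within the slide with both genotypes, against 2374 of all 15736 genes there.

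**Figure D2:**
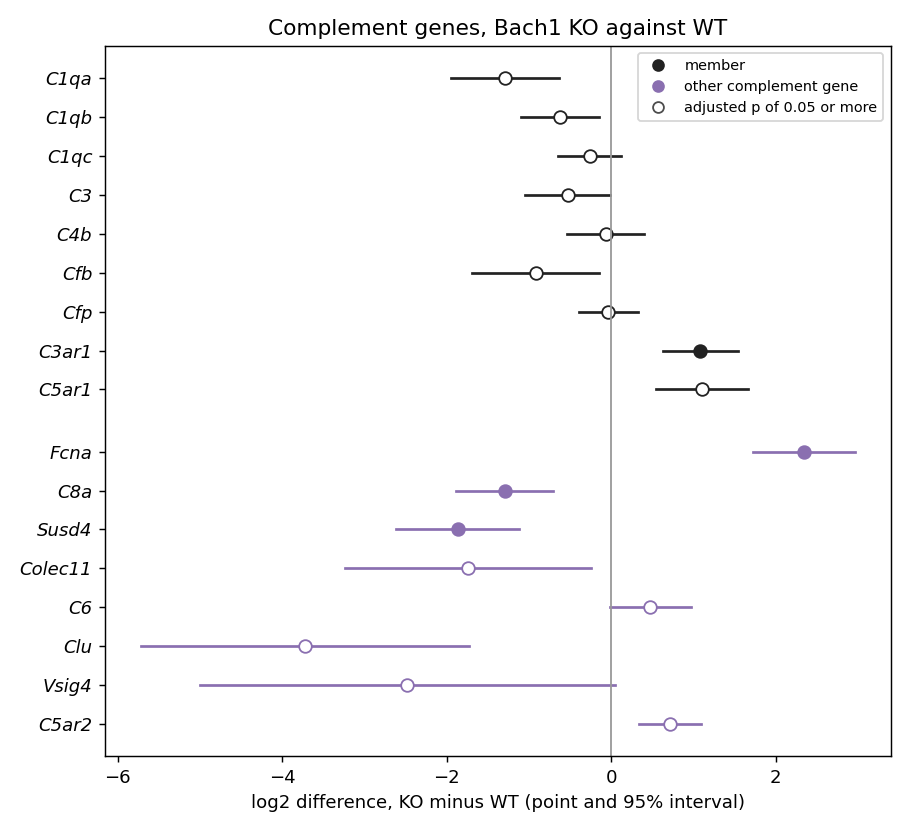
Log2 difference of KO minus WT with its 95% interval from the limma fit (n = 3 mice per genotype) for the 9 genes in black and for 8 other complement genes in purple; filled points had an adjusted p under 0.05. Among the 9, C3ar1 at 1.08 is the only filled point, and Clu at -3.73 lies farthest from 0 of those plotted.

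A contrast that played no part in picking the genes was that of the sexes. With genotype in the model, female minus male differences of the 9 genes ran in size from 0.03 for C1qc to 0.33 for C1qa, and 0 of 9 passed the limma test (0 at an unadjusted p under 0.05, against 447 of all genes), beside 1 of all 15736 genes (0.00635%). Sex was taken from the labels and was not checked against sex-linked genes. With 1 mouse per genotype labelled female, the difference between genotypes could be set apart by sex only for single arrays. These arrays, WT 3 and KO 949, lay on different slides. For Cfb the difference between genotypes was -1.89 in the pair labelled female and -0.44 in the mice labelled male. For C3 it was -1.10 and -0.24. The interaction did not pass for either gene (limma adjusted p = 0.654 for Cfb and 0.717 for C3, unadjusted 0.0268 and 0.0595), and 0 of 9 genes passed it (1 at an unadjusted p under 0.05, against 1120 of all 15736 genes), beside 0.0254% of all genes. For C3ar1 and C5ar1 the difference was 0.82 and 0.56 in females and 1.21 and 1.37 in males.

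Other genes of the pathway were taken from a list of 44. Of these, 2 had no named probe, 10 missed the filter of 3 arrays well above background, among them the terminal protein gene C9 and the factor I gene Cfi on no array, and 32 were tested. In the limma fit 1 rose (Fcna), 2 fell (C8a and Susd4) and 29 did not pass, where 1.14% of all genes passed as higher and 2.27% as lower. Their median difference was 0.04, beside -0.01 for all genes. By role, 1 of 10 early proteins, 1 of 4 terminal proteins, 1 of 9 regulators and 0 of 9 receptors passed (2 of the receptors had an unadjusted p under 0.05, against 20.4% of all genes).

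Fcna encodes ficolin A, a soluble lectin that starts the lectin pathway and is made by macrophages. It read 0.92, 0.40 and -0.10 on WT 1, 2 and 3, against 2.83, 2.70 and 2.70 on KO 947, 948 and 949. The KO arrays lay nearly level and far above each WT array. Fcna rose by 2.34 ± 0.26 (5.06-fold, limma adjusted p = 0.0114) and passed in 16 of 18 alternatives, the exceptions being the slide as a fixed block (2.42, adjusted p = 0.0669) and the slide with both genotypes alone (2.42, adjusted p = 0.0956, the highest of a range from 0.00148).

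Among the regulators Susd4, which encodes a membrane inhibitor of complement, fell by 1.87 ± 0.31 (limma adjusted p = 0.0349). It read -0.09, 0.23 and 0.76 on WT 1, 2 and 3, against -1.15, -1.45 and -2.11 on KO 947, 948 and 949. The groups were well apart, but the call was kept in only 7 of 18 alternatives and was lost without WT 1, WT 2, WT 3, KO 948 or KO 949 (adjusted p = 0.070 to 0.101). Clu encodes clusterin, which binds terminal complexes in fluid, and it read 3.85, 4.48 and 3.97 for the WT mice against 0.22, -1.39 and 2.28 for the KO mice. All KO arrays lay lower, with a spread of 1.84 (SD) among them, and the difference of -3.73 ± 0.84 did not pass (limma adjusted p = 0.0672), although it did in 6 of 18 alternatives.

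The remaining genes of the list gave weaker or fainter values. C8a, which encodes a chain of the membrane attack complex, fell (limma adjusted p = 0.0459), but all 3 KO arrays were not well above background, so it is given as at least 1.64-fold lower, and a second C8a probe was well above background on 1 array only. The C8a call was lost in 15 of 17 alternatives, among them without WT 1, WT 2, WT 3, KO 948 or KO 949 (adjusted p = 0.0827 to 0.124), and the difference of -1.30 was -0.74 with quantile normalization and -0.31 with normexp background correction added to it. Colec11, a collectin of the lectin pathway, differed by -1.74 ± 0.63 (well above background on 2 of 3 KO arrays, limma adjusted p = 0.186, -3.11 within the slide with both genotypes and -1.05 without KO 947), and C6, a terminal protein, by 0.47 ± 0.21 (limma adjusted p = 0.259). Among receptors, C5ar2, the second C5a receptor, differed by 0.71 ± 0.16 (limma adjusted p = 0.0667), in the direction of C5ar1 and C3ar1 and with all KO arrays above all WT arrays. Vsig4, a macrophage receptor of C3 fragments, was well above background on all 3 WT arrays but on only 1 of 3 KO arrays. Its measured difference of -2.48 ± 1.06 (limma adjusted p = 0.251) is therefore set partly by signal at background, and it was -1.25 without WT 1, which read -1.52 where the other arrays read -5.03 or less. The subunits of the C3 fragment receptors CR3 and CR4 were chosen here after their values were seen. They differed by 0.25 (Itgam), -0.31 (Itgax) and 0.09 (Itgb2), with adjusted p from 0.267 to 0.775 in the limma fit. The Itgam value is that of its brightest probe. Dimmer Itgam probes, well above background on all WT and KO arrays, differed by -0.73 and 0.55 (limma adjusted p = 0.262 and 0.125 among all probes). The Itgam probes therefore disagree in sign.

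**Figure D3:**
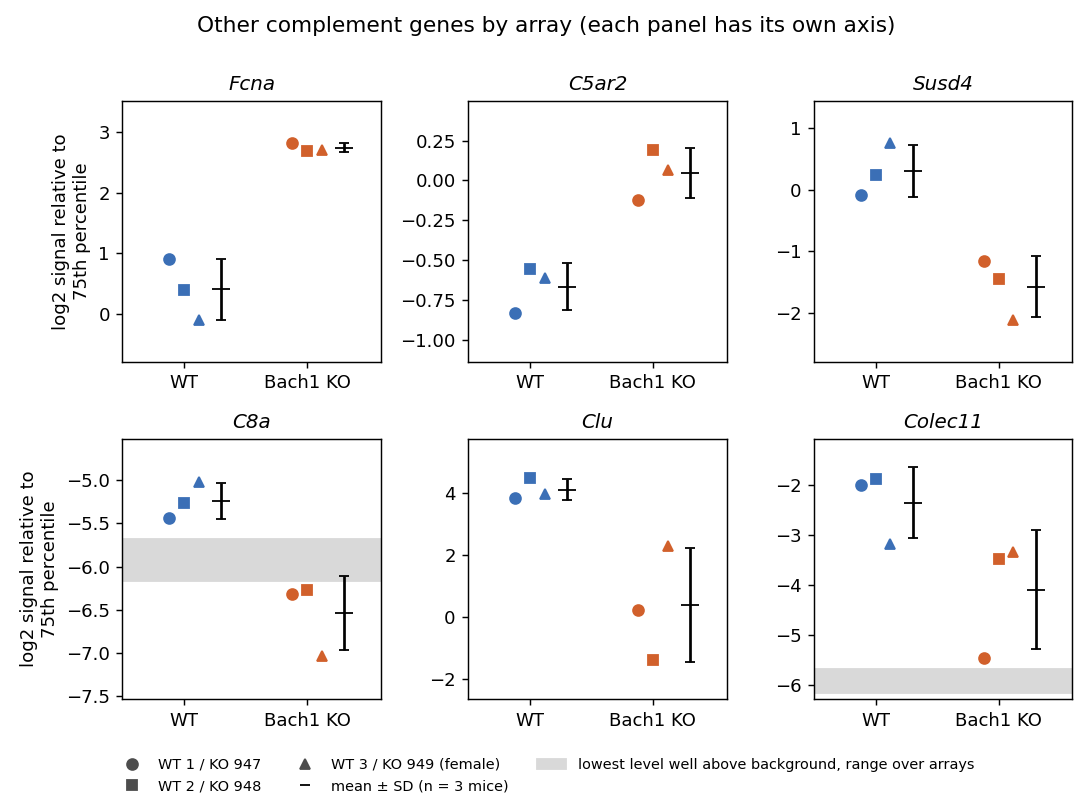
Log2 signal (75th percentile of each array at 0) of 6 other complement genes, with 1 point per mouse and the mean ± SD of 3 mice beside each group; the grey band spans the lowest levels well above background on the arrays (-6.16 to -5.68). Fcna and C5ar2 are higher and Susd4, C8a, Clu and Colec11 lower in all KO arrays, with C8a in KO below the band.

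Of the genes ranked, those whose levels ran most like the C1q chains over the 6 arrays were Rab17 (Pearson r = 0.999), Muc4 (0.997), Dusp5 (0.997), Olfr713 (0.995) and Olfr53 (0.994), set against the mean of C1qa, C1qb and C1qc. Those most like C3 were Ly6f (Pearson r = 0.999), Cd177 (0.992), Tgtp2 (0.988), Gpr65 (0.987) and Atg2a (0.987). These are descriptions over 6 arrays that share the difference between genotypes, and they were picked as the highest of 15736 genes.

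Markers of other cell types moved with the genotypes beside these complement values. The counts past the test below stand beside 2.27% of all genes that passed as lower and 1.14% as higher. The sums below are of linear signal, so the brightest markers of a list weigh most, whether or not they passed. The brightest dendritic cell marker was H2-Ab1 (limma adjusted p = 0.279). Among eosinophil, mast cell and basophil markers it was Prg2 in WT (limma adjusted p = 0.262). On KO 949 it was Siglecf (2.56), which was higher in KO. On KO 948 the brightest stromal marker was Dcn (-0.03). Of the dendritic cell markers all 11 tested were lower in KO, 5 past the test (Ccr7, Cd83, Ccl22, Ciita and Cd209a), and their summed linear signal ran from 251 to 288 in WT and from 179 to 199 in KO, and Xcr1 was not well above background on any array. Of the stromal markers all 8 tested were lower, 3 past the test (Col1a1, Col1a2 and Sparc), with sums of 5.51 to 25.1 in WT and 0.442 to 1.47 in KO, and Lum was not well above background on any array. Granulocyte markers were lower in 8 of 9, 1 past the test (S100a9), with sums of 266 to 352 in WT and 179.7 to 232 in KO. Eosinophil, mast cell and basophil markers were lower in 7 of 8, 3 past the test (Mcpt8, Prss34 and Kit), with sums of 25.3 to 55.0 in WT and 6.85 to 22.9 in KO. Macrophage markers were higher in 6 of 9, 2 past the test (Mrc1 and Msr1), with sums of 349 to 392 in WT and 400.4 to 446 in KO. B cell markers (0 of 3 past the test, 0.405 to 0.575 in WT and 0.557 to 0.842 in KO) and T and NK cell markers (0 of 4, 1.16 to 1.68 and 0.957 to 1.18) had low sums. All 3 tested B cell markers were nevertheless well above background on all 6 arrays. Of the T and NK cell markers only Cd3e was, reading -0.05 to 0.64 in WT and -0.12 to 0.06 in KO. The part of the markers of all these lists in the complement values was not tested, and in such bulk cultures fewer cells of a type and less transcript per cell cannot be told apart.

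**Figure D4:**
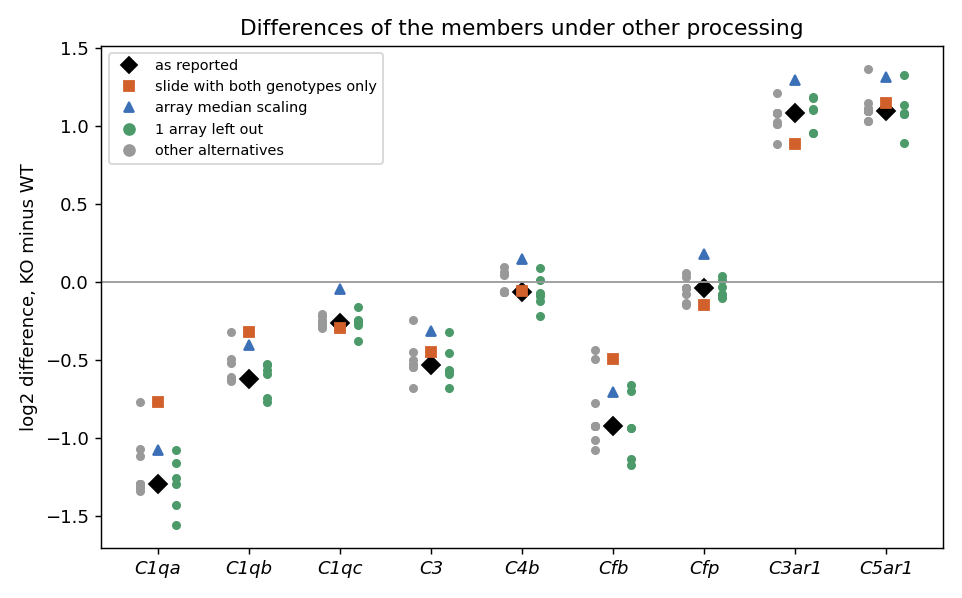
Log2 difference of KO minus WT of the 9 genes as reported (black diamonds) and under 18 alternatives, with 1 array left out in green, the slide with both genotypes alone in orange, scaling to the array median in blue and other settings in grey. C3ar1 and C5ar1 stay above 0 and C1qa, C1qb, C1qc, C3 and Cfb below 0 under all 18, while C4b and Cfp fall on both sides.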

How the data were processed

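Total RNA of 6 cultures, 1 per mouse, was labelled with 1 dye and hybridised to Agilent mouse arrays (designed on mm9, per the file headers). The authors deposited spot intensity from Agilent Feature Extraction (10.7.3.1 per the file headers, 9.1 per the submitters' processing notes). Per the file headers, this processed intensity has its background subtracted and a spatial trend removed. The authors' deposited table holds log2 values of 3215 probes, centred on the median of the arrays. The genotypes overlap in 0 of them, so it is no independent evidence, and its scaling is not stated.

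For this work the log2 75th percentile of each array (spots that are not controls) was subtracted from log2 intensity, outlier spots (0.196% to 0.386%) were left out and spots of a probe averaged. A probe counted as well above background where no fewer of its spots were so than were not. At least 3 of 6 arrays were required, and the brightest such probe stood for a gene. Transcript accessions named 26413 of 55681 probes through RefSeq (GRCm38.p6). Of 15736 genes, 35 had a missing value. For a gene below background on every array of 1 group, the fold is a bound, taken against the higher of its own signal and the lowest signal well above background on each array.

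Genotypes were compared by lmFit and eBayes of limma 3.58.1 (R 4.3.3) with two-sided p-values, adjusted by Benjamini-Hochberg over the 15736 genes, and a threshold of 0.05. The mice are separate animals, and 3 arrays per genotype limit the precision. On simulated data for KO minus WT (15701 genes), 21 of 67 genes with a 2-fold change, 62 of 67 with 4-fold, 65 of 66 with 8-fold and 6 unchanged genes were called. The simulated noise was normal and drawn independently for each gene, with no slide or array effect. These counts therefore do not measure the error rate or the power of the real contrast, where slide and genotype are partly confounded.

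The 9 genes, the 44 other complement genes, markers, motifs and alternatives were chosen with earlier results of these data known. Named were all 9 genes, listed genes past the threshold, the 2 largest differences per role and the 5 genes most alike in pattern. Alternatives were other scalings, background correction (normexp, offset 50, on median spot signals, always followed by quantile normalization, so that both choices change together), filters, slide and sex handling, probe choice, moderation and leaving out each array. The interaction with sex and the dimmer C3 and Itgam probes were added after seeing the data. A listed gene is not reported here.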

Additional observations from a re-analysis of the deposited data

How the results depend on the processing

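The count of 537 genes that differed between genotypes was 332 with quantile normalization, 275 with no filter on dim probes, 84 with the slide as a fixed block, 24 within the slide with both genotypes, 255 with the slide as a random block, 305 with sex as a covariate, 182 on arrays labelled male only and 810 with trended and robust moderation. Leaving out 1 array gave 77 (without WT 1) to 900 (without KO 947). Of the 9 complement genes, 1 passed limma as reported. That number was 0 with quantile normalization, no filter, the slide as a block (fixed or random), the slide with both genotypes alone, sex as a covariate and males only (3 to 5 of 9 at an unadjusted p under 0.05 in these, against 2301 to 2954 of 15736 genes, and 3626 of 20018 with no filter), 2 with scaling to the array median (C3ar1 and C5ar1), and 3 with normexp plus quantile normalization, with probes well above background on all 6 arrays and with trended and robust moderation (C1qa, C3ar1 and C5ar1 in each). Leaving out 1 array gave 0 (without WT 1, WT 2, KO 948 or KO 949) to 2 (without KO 947: C1qa and C3ar1), and without WT 3 C5ar1 passed in place of C3ar1. C1qa passed in 4 of 18 alternatives and C5ar1 in 5. C1qb, C1qc, C3 and Cfb passed in 0 of those run and kept their direction in all. The C4b difference of -0.066 turned to 0.10 with quantile normalization, 0.15 with scaling to the array median, 0.046 with normexp plus quantile normalization and 0.065 on males only, and ran from -0.22 (without KO 948) to 0.090 (without KO 949). That of Cfp, -0.038, turned to 0.036, 0.18 and 0.062 with the first 3 of these and ran from -0.10 (without KO 949) to 0.043 (without WT 1).

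Of the other complement genes, 3 passed as reported, 6 with normexp plus quantile normalization (Fcna, Susd4, C5ar2, Cd59a, Cd93 and Clu), 5 with trended and robust moderation (Fcna, Susd4, Cd59a, Cd93 and Clu), 1 with no filter, with the slide as a random block and with sex as a covariate (Fcna in each), 1 within the slide with both genotypes (Clu) and 0 with the slide as a fixed block (10 of 32 at an unadjusted p under 0.05, against 2832 of 15736 genes). Leaving out 1 array gave 1 (without WT 1, WT 2, WT 3 or KO 948) to 5 (without KO 947). Fcna passed with each of the 6 arrays left out. Between the sexes 1 gene passed, 0 with no filter (607 of 20018 genes at an unadjusted p under 0.05) and 0 to 2 with 1 array left out. With the slide as a fixed block KO 947 alone sets the contrast, and the cause of each lost call was not tested. Faint probes such as C8a and Mbl1 in KO lie at the background, where a fold is a bound or depends on the correction. The authors' deposited table gave differences of 1.10 for C3ar1 and 1.12 for C5ar1. No paired analysis was possible because the labels number the mice of the genotypes differently.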
